A study of Mus musculus with 8 samples.

Results

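Cells reach and stay in the bone marrow through a small set of surface proteins, and 9 of their genes were followed here: the chemokine receptor gene Cxcr4, the integrin subunit genes Itga4, Itga5, Itga6, Itgal, Itgb1 and Itgb7, the hyaluronan receptor gene Cd44 and the selectin ligand gene Selplg. They were chosen by symbol, as the probes that were not controls and whose gene name in the array files was on that list. This gave 17 probes of 55661, and all 9 genes were among the 23231 features tested. The arrays were single-colour Agilent arrays, with RNA amplified from low input and labelled with Cy3. RNA came from FACS-sorted bone marrow cells that received no treatment, from mice aged 6 weeks on a mixed background (B6/CBA and others). KSL cells are the c-Kit+ Sca-1+ lineage- fraction, which holds the haematopoietic stem and progenitor cells, and Gr cells carry Gr-1 and Mac-1, as granulocytes and their late precursors do. Vav-Etv2 mice carried an Etv2 transgene switched on by a second transgene, Vav-iCre, whose promoter is active in blood cells, and the other genotype is labelled Control. Whether control mice carried either transgene alone is not given in the labels. Etv2 encodes an ETS transcription factor of early blood and vessel development. Each of the 4 groups (KSL control, KSL Vav-Etv2, Gr control and Gr Vav-Etv2) had 2 arrays. The labels do not state whether these were separate animals or pools, so each p-value below measures only the spread between these samples.

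CXCR4 binds the chemokine CXCL12, which marrow stroma secretes, and this axis holds stem cells and young neutrophils in the marrow. Integrins are dimers of an α and a β subunit. The α4 subunit pairs with β1 to bind VCAM-1 and fibronectin and with β7 to bind MAdCAM-1, α5 with β1 binds fibronectin, α6 with β1 binds laminin, and αL with β2 binds the ICAMs. CD44 binds hyaluronan, and PSGL-1, the product of Selplg, carries the sugars that selectins on marrow endothelium catch when a cell rolls along the vessel wall.

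The levels of Cxcr4 and Cd44 varied together over the 8 arrays (r = 0.98). These arrays share the cell type difference, so this r is a description and no shared regulation was tested. The 250 bases upstream of the start sites of this pair are shown (RefSeq, GRCm38.p6, 5′ to 3′ on the strand of the gene, here the minus strand of both chromosomes). Capitals mark GGAA, the core letters that ETS factors such as ETV2 bind, or its reverse complement TTCC. The Cxcr4 window is chr1:128592300-128592549 and the Cd44 window is chr2:102901666-102901915.
Cxcr4: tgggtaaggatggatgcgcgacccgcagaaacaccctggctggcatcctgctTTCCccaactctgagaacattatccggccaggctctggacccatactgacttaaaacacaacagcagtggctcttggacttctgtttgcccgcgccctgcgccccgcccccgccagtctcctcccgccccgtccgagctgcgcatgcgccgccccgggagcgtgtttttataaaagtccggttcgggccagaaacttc
Cd44: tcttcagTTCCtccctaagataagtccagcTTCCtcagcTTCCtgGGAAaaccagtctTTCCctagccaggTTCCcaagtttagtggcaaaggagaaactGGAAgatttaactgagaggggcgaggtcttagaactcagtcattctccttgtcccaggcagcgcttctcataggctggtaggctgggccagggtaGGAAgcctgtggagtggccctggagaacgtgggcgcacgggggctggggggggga
The window of Cxcr4 held 1 such core and that of Cd44 held 8. RefSeq windows were matched for 6 of the 9 genes, Itga6, Itgal and Selplg being the others. Itga5 had 8 cores, Itgb1 had 4, and Itga4 and Itgb7 had 1 each. GGAA was present on either strand in 93.4% of 32851 windows of the same length, with a median of 3 sites. The longer ETS forms CCGGAAGT and ACCGGAAG, both of which contain the core, were in 2.88% and 1.72% of all windows and in 0 of the 6. The E-box CANNTG was in 66.2% of all windows and in those of Itga4, Itgb7 and Itga5, the Runx letters TGTGGT in 14.05% and in that of Itga4, and the GATA letters AGATAA in 9.99% and in that of Cd44. All were searched on both strands. These are letter matches, and no binding was measured.

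The result for Itgb1 turned on the probe, and that for Cd44 held over several, so the sequences of both pairs of probes are given with their places on build mm9. The Itgb1 probes lie on the plus strand of chromosome 8. The probe A_66_P113059 stood for the gene because it was the brighter over all arrays, and its 60 bases span 5896 bases from chr8:131250081-131255976, so they cross at least 1 intron. The other lies within chr8:131246349-131246408, upstream of it. The Cd44 probes lie on the minus strand of chromosome 2, and those shown are the 2 nearest the 5′ end of the gene. Cd44 transcripts differ by a run of variable exons, and the files list 3 RefSeq transcripts for A_55_P2166488 (chr2:102677971-102678030) and 4 for A_55_P2166486 (chr2:102672645-102672704).
A_66_P113059 (Itgb1): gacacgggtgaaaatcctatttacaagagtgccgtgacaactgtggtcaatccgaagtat
A_52_P351816 (Itgb1): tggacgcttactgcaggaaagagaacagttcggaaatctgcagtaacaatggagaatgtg
A_55_P2166488 (Cd44): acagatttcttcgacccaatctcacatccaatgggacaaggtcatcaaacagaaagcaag
A_55_P2166486 (Cd44): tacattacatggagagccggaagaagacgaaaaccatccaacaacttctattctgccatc

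Several facts of the whole series bear on these genes. All arrays lay on 1 slide, with KSL samples in row 1 and Gr samples in row 2, so cell type and slide row cannot be told apart. The 75th percentile of the signal lay between 195 and 266 in KSL arrays, at 136 and 149 in the Gr arrays numbered 1 and at 300.2 and 272 in those numbered 2. Xist and Y-linked probes marked all KSL arrays and both Gr arrays numbered 1 as female and both Gr arrays numbered 2 as male. Etv2 was not well above background in either KSL control or in Gr control 1, and was well above it on all 4 Vav-Etv2 arrays and also on the array labelled Gr control 2. By one Etv2 probe that array stood at -0.54 and the Vav-Etv2 Gr arrays at -0.55 and -1.29, and by the other at -0.85 against -2.33 and -1.88, so a Gr genotype comparison here sets an array with as much Etv2 signal among the controls. The same array is part of the Gr side of every comparison between control KSL and control Gr cells. KSL Vav-Etv2 1 stood apart: the median level of 8 endothelial markers was 2.83 on it, where all 8 were well above background, and between -2.50 and -1.17 on the other KSL arrays, where 6 to 8 were, and that of 11 granulocyte markers was 2.51 against 6.51 to 6.76. Kit, the c-Kit gene, was higher in all KSL arrays (3.45 to 5.15) than in Gr arrays (1.42 to 2.04). Ly6a, which encodes Sca-1, went against the sort, with 2.26 to 3.65 in KSL and 4.48 to 6.33 in Gr arrays. Ly6g, the Gr-1 antigen's gene, was not found by name on the array. Itgam, which encodes a Mac-1 subunit, was lower in KSL than in Gr cells of Vav-Etv2 mice (log2 difference -2.01, SE 0.55, limma adjusted p = 0.0391). In control mice it was lower too, without an adjusted p under 0.05.

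In control mice the homing genes divided by cell type: Selplg, Cd44 and Itgal were lower in KSL than in Gr cells, by 3.38-fold, 3.47-fold and 5.82-fold, and Itga6 was 2.19-fold higher in KSL. Cxcr4 and Itgb7 were lower in KSL on every array without passing the test, and Itga4, Itga5 and Itgb1 overlapped between the cell types. So 4 of 9 genes were called by limma at an adjusted p under 0.05, where 34.7% of all 23231 features were (16.2% higher and 18.5% lower), and 5 of 9 had an unadjusted p under 0.05, where 47.7% had. The median difference of all features was -0.13 on the log2 scale. The 2 groups did not overlap for 6 of 9 genes and for 75.3% of all features. The share of called genes is thus near that of the array as a whole. The control Gr side of these differences includes Gr control 2, the array with Etv2 signal. With that array left out, the log2 differences were -2.23 for Selplg, -2.24 for Cd44, -3.11 for Itgal and 0.95 for Itga6. Under scaling to each array's median, the calls over all features split into 2791 higher and 4978 lower, in place of 3772 and 4297. In Vav-Etv2 mice Selplg, Cd44 and Itgal were again lower in KSL cells, 3 of 9 genes called against 24.3% of all features (10.4% higher and 13.8% lower), with 6 of 9 at an unadjusted p under 0.05 against 41.1%, and 6 of 9 genes did not overlap, against 69.8%. These are bulk samples, in which fewer cells of a type and less RNA per cell cannot be told apart.

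**Figure D1:**
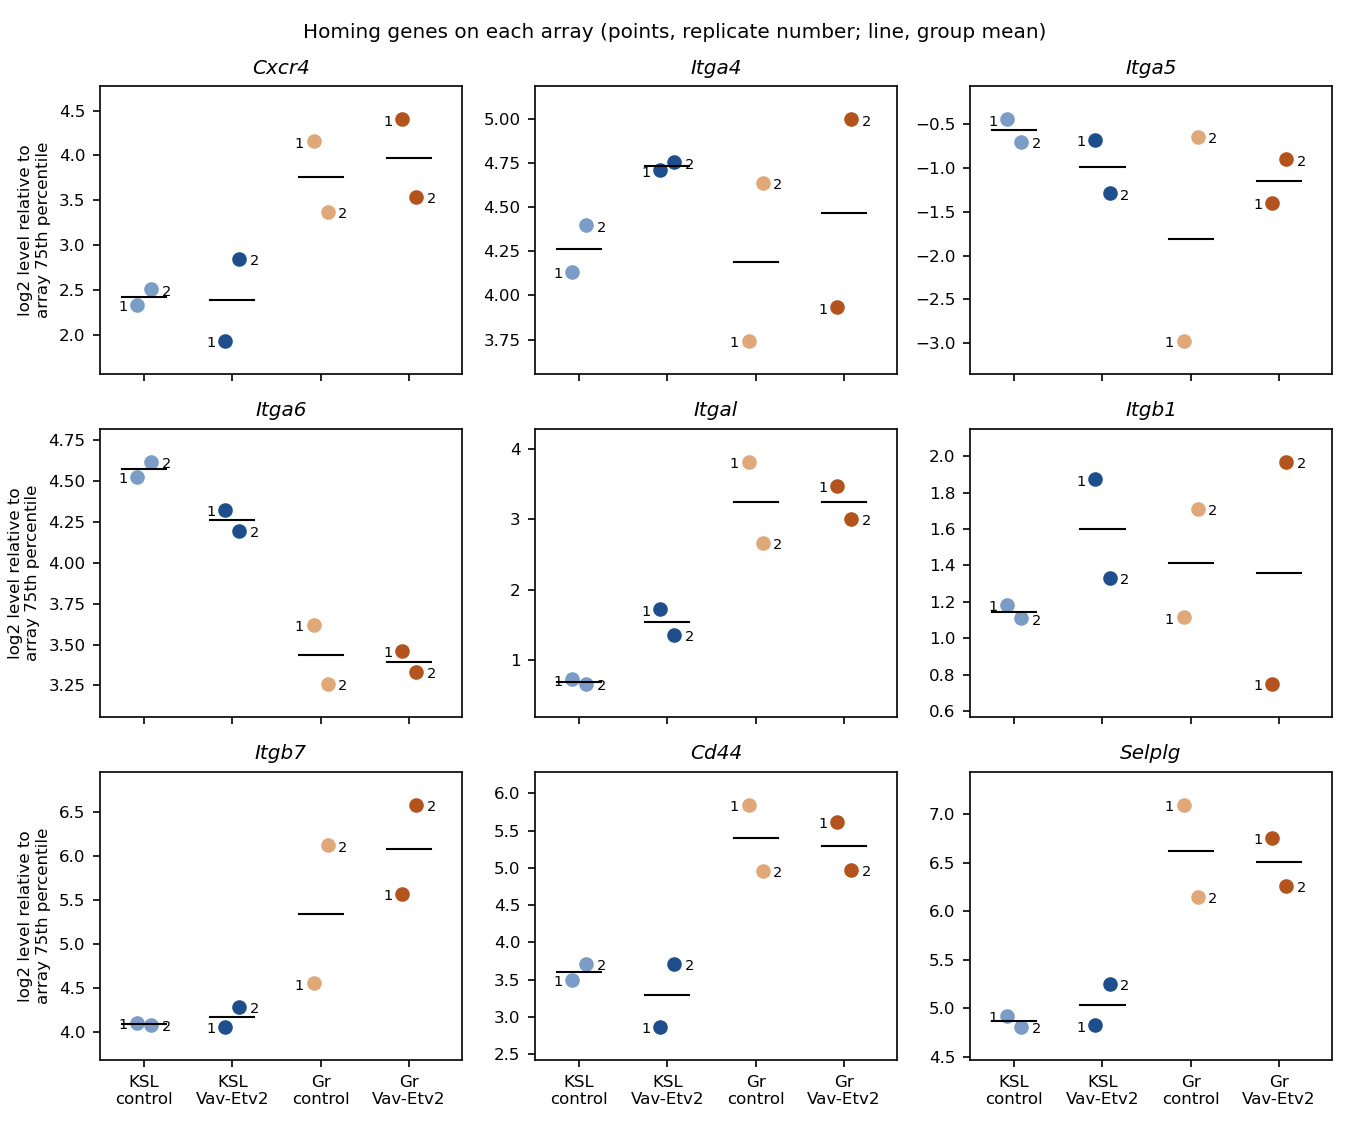
Log2 level of each homing gene relative to the array's 75th percentile (y axis, its own range in each panel) on the 8 arrays, by group (x axis), where points are arrays numbered by replicate and lines are group means of 2 arrays. Itga6 is highest in KSL cells, Selplg, Cd44, Itgal, Cxcr4 and Itgb7 are higher on every Gr array than on any KSL array, and Itga4, Itga5 and Itgb1 overlap.

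Cxcr4 was measured by 1 probe at chr1:130485079-130485138 (mm9, minus strand). It was well above background on all 8 arrays, as was every other homing gene. All levels are in log2 units with each array's 75th percentile at 0. In KSL cells Cxcr4 stood at 2.33 and 2.51 in controls and at 1.93 and 2.84 in Vav-Etv2 mice, replicates 1 and 2 in that order. In Gr cells it stood at 4.16 and 3.37 in controls and at 4.40 and 3.54 in Vav-Etv2 mice. Every Gr array was above every KSL array, while the genotypes overlapped in both cell types, and within each genotype Gr array 1 was above Gr array 2. The order of the group means was Gr Vav-Etv2, Gr control, KSL control and KSL Vav-Etv2, and the groups next to each other overlapped except Gr control and KSL control. Control KSL cells were 2.54-fold lower than control Gr cells (log2 difference -1.34, SE 0.48, limma adjusted p = 0.0677). In Vav-Etv2 mice the difference was -1.58 (SE 0.48, limma adjusted p = 0.0535). Neither passed the threshold, and both did under normexp background correction (0.0366 and 0.0252) and median scaling (0.0456 and 0.0362). Of 20 alternatives, 14 in control and 10 in Vav-Etv2 mice left Cxcr4 uncalled, with limma adjusted p up to 0.278 and 0.239. Vav-Etv2 differed from control by -0.03 in KSL cells (95% interval -1.17 to 1.11) and by 0.21 in Gr cells (-0.93 to 1.35).

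Itga4, the α4 subunit of the VCAM-1 receptor, was read by the probe at chr2:79173193-79173252 (plus strand). It stood at 4.13 and 4.40 in KSL controls and at 4.71 and 4.75 in KSL Vav-Etv2 cells. In Gr cells it was 3.74 and 4.64 in controls and 3.93 and 5.00 in Vav-Etv2 mice. Both KSL Vav-Etv2 arrays were above both KSL controls, but the KSL values all fell within the range of the Gr arrays. The 4 group means lay within 4.19 and 4.73, and no neighbours in their order were free of overlap. The KSL difference between genotypes was 0.47 (SE 0.46, limma adjusted p = 1.00), and Gr cells differed by 0.28 (SE 0.46, limma adjusted p = 1.00). Control KSL and control Gr cells differed by 0.08 (95% interval -1.02 to 1.17). A second, dimmer probe gave 0.84 between genotypes in KSL cells (SE 0.54, limma adjusted p = 0.910) and -0.07 between control cell types.

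Itga5, the α5 subunit of the fibronectin receptor, had 1 probe, at chr15:103175022-103175081 (minus strand). Its KSL levels were -0.45 and -0.70 in controls and -0.68 and -1.29 in Vav-Etv2 mice. Its Gr levels were -2.98 and -0.65 in controls and -1.40 and -0.90 in Vav-Etv2 mice. Gr control 1 was the lowest array by over 1 log2 unit and the remaining 7 overlapped. Control KSL and control Gr cells differed by 1.24 (SE 0.72, limma adjusted p = 0.213). Leaving out the array labelled Gr control 2, so that Gr control 1 stood alone in its group, made that difference 2.40, and without Gr control 1 it was 0.08. Over all alternatives its adjusted p ranged from 0.0106 to 0.918. The genotypes differed by -0.41 in KSL cells and by 0.66 in Gr cells (SE 0.72 for both, limma adjusted p = 1.00 for both).

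Itga6, the α6 subunit of the laminin receptor, was the one homing gene called higher in KSL cells of control mice. Its probe lies at chr2:71694756-71694815 (plus strand). KSL levels were 4.53 and 4.62 in controls and 4.33 and 4.19 in Vav-Etv2 mice, and Gr levels were 3.62 and 3.26 in controls and 3.46 and 3.33 in Vav-Etv2 mice. All KSL arrays were above all Gr arrays, and both KSL Vav-Etv2 arrays were below both KSL controls. In order, KSL control stood above KSL Vav-Etv2 and this above Gr control without overlap, while the Gr groups overlapped. The control cell types differed by 1.13 (SE 0.28, limma adjusted p = 0.0224). In Vav-Etv2 mice the difference was 0.86 (SE 0.28, limma adjusted p = 0.0630), which did not pass. KSL cells of the 2 genotypes differed by -0.31 (95% interval -0.97 to 0.35, limma adjusted p = 0.993) and Gr cells by -0.04 (-0.70 to 0.62). The call in control mice was lost under median scaling (0.97, adjusted p = 0.0526), without the filter on dim probes (0.0619), with only the compared groups fitted (0.0593) and without the array labelled Gr control 2 (0.95, adjusted p = 0.0516), within a range of limma adjusted p from 0.00746 to 0.136.

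Itgal, the αL subunit of LFA-1, showed the widest gap between cell types in control mice among these genes. Its probe lies at chr7:134477160-134477219 (plus strand). In KSL cells it stood at 0.73 and 0.67 in controls and at 1.72 and 1.36 in Vav-Etv2 mice. In Gr cells it stood at 3.81 and 2.67 in controls and at 3.47 and 3.01 in Vav-Etv2 mice. Every Gr array was above every KSL array, and both KSL Vav-Etv2 arrays were above both KSL controls. Control KSL cells were 5.82-fold lower than Gr cells (log2 difference -2.54, SE 0.43, limma adjusted p = 0.00723) and Vav-Etv2 KSL cells 3.24-fold lower (-1.70, SE 0.43, limma adjusted p = 0.0322). In KSL cells Itgal was 1.79-fold higher in Vav-Etv2 mice (log2 difference 0.84, SE 0.43, 95% interval -0.18 to 1.87, limma adjusted p = 0.820), 1.02 above the control mean in replicate 1 and 0.66 in replicate 2. In Gr cells the difference was -0.00 (-1.03 to 1.03). The difference of these 2 effects was 0.84 (SE 0.61, limma adjusted p = 1.00), so no difference between cell types was detected. Of the other 2 probes, A_55_P2184601, just upstream, gave -2.83 between control cell types and 1.11 between genotypes in KSL cells. The third, A_55_P2184606, for which the files list no RefSeq transcript, gave -0.95 and 0.06. β2, the partner of αL, is encoded by Itgb2. Itgb2 stood at 2.62 and 2.65 in KSL controls, 2.07 and 3.05 in KSL Vav-Etv2 cells, 7.52 and 6.49 in control Gr cells and 7.49 and 6.52 in Vav-Etv2 Gr cells. It fell by 4.37 from control Gr to control KSL cells (limma adjusted p = 0.00276), and the genotypes differed by -0.08 in KSL and 0.00 in Gr cells.

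Itgb1, the β1 subunit shared by the α4, α5 and α6 receptors, gave opposite answers from the 2 probes whose sequences are printed above. The brighter probe stood at 1.18 and 1.11 in KSL controls, 1.87 and 1.33 in KSL Vav-Etv2 cells, 1.11 and 1.71 in control Gr cells and 0.75 and 1.97 in Vav-Etv2 Gr cells. On it both KSL Vav-Etv2 arrays were above both KSL controls, and the cell types overlapped. Its difference was -0.27 between control KSL and Gr cells (SE 0.47, limma adjusted p = 0.680) and 0.45 between genotypes in KSL cells (SE 0.47, limma adjusted p = 1.00). The upstream probe stood at 0.42 and 0.27 in KSL controls, -0.42 and -0.77 in KSL Vav-Etv2 cells, -1.19 and -0.88 in control Gr cells and -1.08 and -0.60 in Vav-Etv2 Gr cells. On this probe both KSL Vav-Etv2 arrays were below both KSL controls, and KSL controls were above all Gr arrays. With every probe tested by itself, it was higher in control KSL than in control Gr cells (1.38, SE 0.32, limma adjusted p = 0.0187) and differed by -0.94 between genotypes in KSL cells (SE 0.32, limma adjusted p = 0.590). In these comparisons the direction of Itgb1 turned with the probe, while both probes gave 0.25 and 0.24 between Vav-Etv2 cell types, and the mean of both gave 0.56 between control cell types and -0.24 between genotypes in KSL cells.

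Itgb7, the β7 subunit of the MAdCAM-1 receptor, had 1 probe, at chr15:102046450-102046509 (minus strand). It stood at 4.10 and 4.08 in KSL controls and at 4.06 and 4.28 in KSL Vav-Etv2 cells. In Gr cells it stood at 4.55 and 6.12 in controls and at 5.57 and 6.58 in Vav-Etv2 mice. All Gr arrays were above all KSL arrays, and the 4 KSL arrays lay close together while the Gr arrays spread widely. Control KSL cells differed from control Gr cells by -1.24 (SE 0.57, limma adjusted p = 0.130) and Vav-Etv2 KSL from Vav-Etv2 Gr cells by -1.90 (SE 0.57, limma adjusted p = 0.0524). Without Gr control 1 the control difference was -2.03, and without Gr control 2 it was -0.46, each resting on a single control Gr array. Over the alternatives the limma adjusted p ran from 0.0144 to 0.466. Between genotypes Itgb7 differed by 0.08 in KSL cells (95% interval -1.28 to 1.44) and by 0.74 in Gr cells (-0.62 to 2.10, limma adjusted p = 1.00).

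Cd44 was lower in KSL cells by all 4 of its probes. The probe used, at chr2:102651398-102651457 (minus strand), stood at 3.50 and 3.71 in KSL controls and at 2.87 and 3.71 in KSL Vav-Etv2 cells. In Gr cells it stood at 5.85 and 4.96 in controls and at 5.61 and 4.98 in Vav-Etv2 mice. Each Gr array was above each KSL array, and the genotypes overlapped in both cell types. The fall was 3.47-fold in control KSL cells (-1.80 in log2, SE 0.46, limma adjusted p = 0.0253), and Vav-Etv2 KSL cells were 4.01-fold lower (SE 0.46 on the log2 scale, limma adjusted p = 0.0227). The 4 probes gave control differences between -2.82 and -1.45, and 3 of 4 were called. The upstream pair printed above gave -2.82 (A_55_P2166488, SE 0.50, limma adjusted p = 0.00775) and -1.45 (A_55_P2166486, SE 0.75, limma adjusted p = 0.171). Between genotypes Cd44 differed by -0.31 in KSL cells (95% interval -1.40 to 0.77) and by -0.11 in Gr cells (-1.19 to 0.98). The KSL value came from 1 array: against the control mean, KSL Vav-Etv2 1 stood at -0.74 and replicate 2 at 0.11.

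Selplg, which encodes PSGL-1, was read at chr5:114267807-114267834 (minus strand), where the files place 28 bases of a 60-base probe. It stood at 4.92 and 4.81 in KSL controls, at 4.83 and 5.25 in KSL Vav-Etv2 cells, at 7.10 and 6.15 in control Gr cells and at 6.76 and 6.26 in Vav-Etv2 Gr cells. All Gr arrays were higher than all KSL arrays, and the genotypes overlapped in both. Control KSL cells were 3.38-fold lower than Gr cells (log2 difference -1.76, SE 0.40, limma adjusted p = 0.0183), and Vav-Etv2 KSL cells were 2.78-fold lower (-1.47, SE 0.40, limma adjusted p = 0.0402). A second probe gave -2.27 (limma adjusted p = 0.00789) and -1.59 (limma adjusted p = 0.0314). The genotypes differed by 0.17 in KSL cells (95% interval -0.79 to 1.13) and by -0.11 in Gr cells (-1.07 to 0.85).

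The cell type calls were sensitive to leaving out an array. All 4 calls in control mice were lost without either KSL control, where calls over all features fell as well. KSL control 2 minus KSL control 1 was -0.07 for Itgal, 0.09 for Itga6, 0.22 for Cd44 and -0.11 for Selplg. The control calls of Cd44 and Selplg were also lost without Gr control 1, at differences of -1.35 and -1.28. In Vav-Etv2 mice all 3 calls were lost without KSL Vav-Etv2 1, where the differences were -1.88 for Itgal, -1.58 for Cd44 and -1.26 for Selplg, or without Gr Vav-Etv2 1, where they were -1.46, -1.69 and -1.23 (limma adjusted p from 0.0960 to 0.182). They were also lost without either KSL control (0.0503 to 0.0830), which leaves these differences as they are and changes only the estimated spread and its degrees of freedom. Itgal and Selplg, but not Cd44, were also lost without KSL Vav-Etv2 2 (0.139 and 0.0912) or Gr Vav-Etv2 2 (0.0526 and 0.0556), and both without a filter on dim probes (0.0618 and 0.0794). Selplg was further lost with quantile normalization and with only the compared groups fitted, and Itgal with the mean of its probes. Median levels of the 11 granulocyte markers were, like those of Itgal, Cd44 and Selplg, higher on every Gr array than on any KSL array. They were 10.17 and 9.30 in Gr controls, 10.03 and 9.40 in Vav-Etv2 Gr cells, 6.51 and 6.55 in KSL controls and 2.51 and 6.76 in KSL Vav-Etv2 cells. All 11 were well above background on each array, and their summed linear level, in units of the array's 75th percentile, was 1781 and 1672 in KSL controls and 12122 and 5608 in Gr controls. Medians of the 6 monocyte and macrophage markers were also higher on every Gr array (1.96 to 3.92) than on any KSL array (-0.79 to 0.89). The part of both lists in the differences was not tested.

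**Figure D2:**
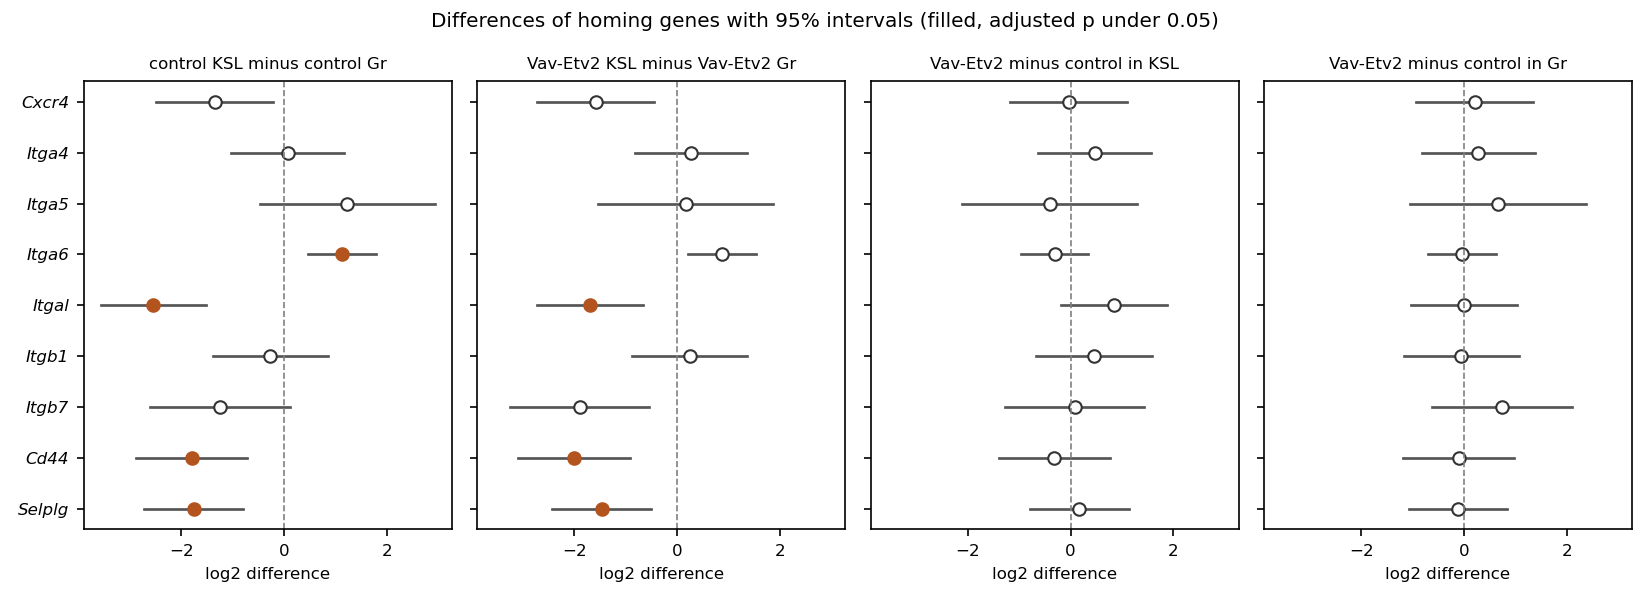
Log2 difference of each homing gene (x axis) with its 95% interval, in 4 comparisons; filled points had a limma adjusted p under 0.05. In control mice 4 genes are filled and in Vav-Etv2 mice 3 are, and 0 are filled in either comparison of genotypes.

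**Figure D3:**
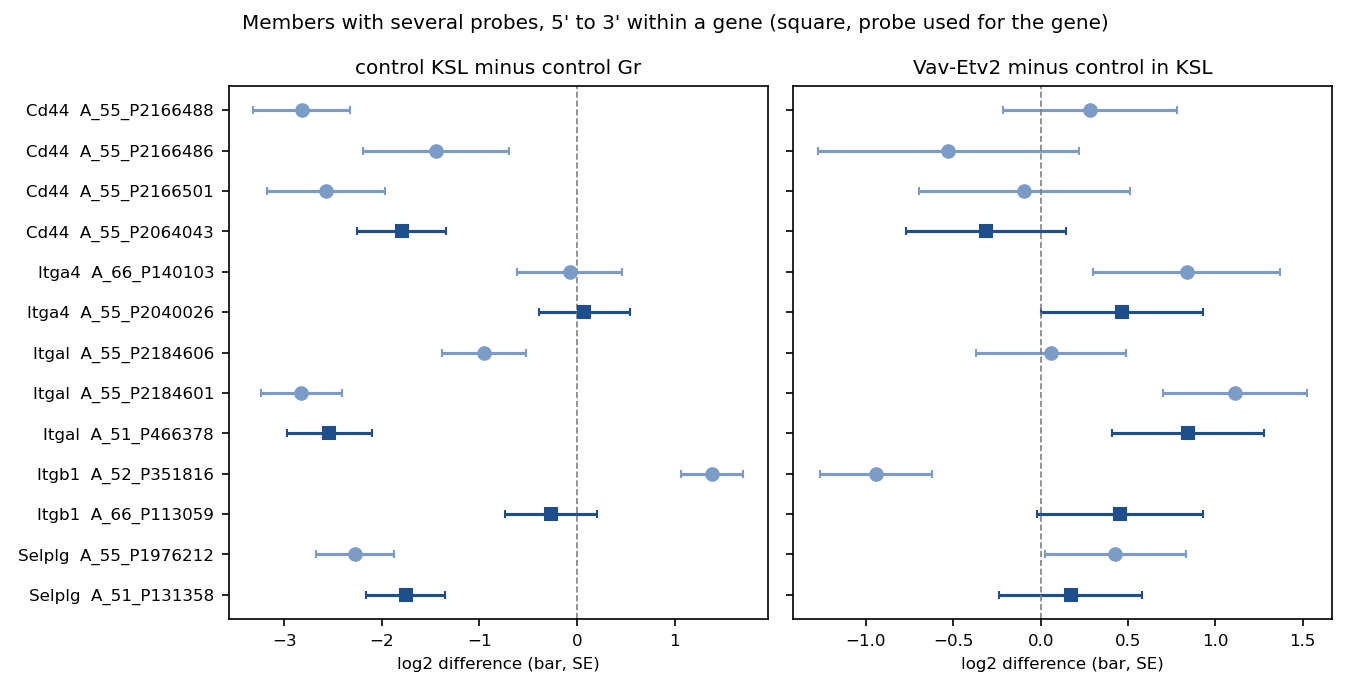
Log2 difference (x axis; bars are SE) for each probe of the 5 genes with more than 1 probe, named at the left and ordered 5′ to 3′ within a gene, between control KSL and control Gr cells (left) and between genotypes in KSL cells (right). All 4 Cd44 probes lie below 0 at the left, and the 2 Itgb1 probes take opposite signs in both panels.

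Between genotypes none of the 9 genes passed the limma threshold in either cell type. In KSL cells 0 of 9 were called by limma, where 0.0172% of all features were, and 0 of 9 had an unadjusted p under 0.05, where 7.43% of all features had. Itga4, Itgal and Itgb1 were higher and Itga6 lower on both Vav-Etv2 arrays than on both controls, 4 of 9 genes without overlap against 51.6% of all features (26.2% higher and 25.4% lower). For Itgb1 this holds for the brighter probe and is the reverse for the other. In Gr cells 0 of 9 were called by limma, against 0.00861% of all features, 0 of 9 had an unadjusted p under 0.05 (1.27% of all features), and 0 of 9 were free of overlap (11.6%). Without the array labelled Gr control 2, which carried Etv2 signal, 0 of 9 were called and 0 of all features were, and the differences ran from -0.59 for Selplg to 1.83 for Itga5. Within same-numbered Gr arrays, which share their sex, Vav-Etv2 minus control was 0.25 and 0.17 for Cxcr4, 0.19 and 0.36 for Itga4 and 1.02 and 0.46 for Itgb7. These 3 genes were higher in both pairs, and the other 6 differed in sign between the pairs. The share of all features with the same sign in both pairs was not counted. The difference of the genotype effect between KSL and Gr cells was called for 0 of 9 genes (0.0043% of all features) and had an unadjusted p under 0.05 for 0 of 9 (3.9%). Its values ran from -1.07 for Itga5 to 0.84 for Itgal. The smallest limma adjusted p of the 9 in KSL cells was 0.820, for Itgal. The 95% intervals in KSL cells included a log2 difference of 1, up or down, for 8 of the 9 genes, Itga6 being the exception.

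Against the mean of the KSL controls, Itgal stood at 1.02 and 0.66 in KSL Vav-Etv2 replicates 1 and 2, Itga4 at 0.44 and 0.49 and Itga6 at -0.25 and -0.38. Itga5 stood at -0.10 and -0.72, and Itgb1, by its brighter probe, at 0.73 and 0.18. These 5 genes kept their sign on both arrays. The share of all features that did so was not counted, but it is at least the 51.6% whose genotypes did not overlap. Cxcr4 stood at -0.49 and 0.43, Cd44 at -0.74 and 0.11, Selplg at -0.04 and 0.38 and Itgb7 at -0.03 and 0.19, so their direction depended on which array was used. KSL Vav-Etv2 1, the array with high endothelial and low granulocyte markers, was the lower of the pair for Cxcr4, Cd44, Selplg, Itgb7 and Itga4. It was the higher of the pair for Itgal, Itgb1, Itga5 and Itga6. Its granulocyte marker median was 2.51, against 6.76 on KSL Vav-Etv2 2 and 6.51 and 6.55 in the KSL controls. B lineage markers were higher on both KSL Vav-Etv2 arrays, with a median of 2.15 and 2.77 over 8 genes against 0.08 and -0.19 in the controls, and megakaryocyte markers on replicate 1 only (2.78, against 0.34 to 0.55 on the other KSL arrays). The 10 KSL markers were at medians of 2.85 and 3.01 on the Vav-Etv2 arrays and 4.14 on both controls, with 9 and 10 of 10 well above background, then 10 of 10. The 7 T and NK markers were at -2.30 and -1.81 against -0.58 and -0.55, with Cd3g and Cd3d not well above background on KSL Vav-Etv2 1. The part of all these markers in the differences of the homing genes was not tested.

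The Gr arrays numbered 1 and 2 differed for all 9 genes in the same direction in both genotypes, where 79.4% of all features did. Replicate 2 minus replicate 1 was -0.79 in controls and -0.86 in Vav-Etv2 mice for Cxcr4, -0.89 and -0.64 for Cd44, -0.95 and -0.50 for Selplg and -1.14 and -0.47 for Itgal. These 4 genes, and Itga6 at -0.36 and -0.13, were lower on the arrays numbered 2. Itga4 (0.89 and 1.07), Itgb1 (0.60 and 1.22), Itgb7 (1.57 and 1.01) and Itga5 (2.32 and 0.49) were higher on them. Among KSL arrays 6 of 9 genes took the same sign in both genotypes, and 54% of all features did. In Gr cells the arrays numbered 2 were from males and those numbered 1 from females, so sex and replicate number cannot be told apart there. Mast and basophil markers rose with the number, with medians of -0.89 and 1.77 in Gr control 1 and 2 and of -1.59 and 1.00 in Gr Vav-Etv2 1 and 2, as did the monocyte markers (1.96 and 3.48, then 2.97 and 3.92). Granulocyte marker medians fell with it (10.17 and 9.30, then 10.03 and 9.40). The median of the KSL markers also rose (-1.66 and -0.15, then -0.86 and -0.18), and those of the other lists fell. The mast list had 4 and 5 of 6 genes well above background on the arrays numbered 1 and 6 of 6 on those numbered 2, and Fcer1a and Ms4a2 were the ones below it on Gr Vav-Etv2 1. The part of these markers and of the array signal in these differences was not tested.

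With both Gr arrays numbered 2 left out, an alternative chosen after seeing the data, all remaining arrays were female. Each Gr group then held only its array numbered 1, so its own spread could not be measured. Only effect sizes are given here. The difference between control KSL and control Gr cells was then -1.74 for Cxcr4, 2.40 for Itga5 and -3.11 for Itgal. It was -2.24 for Cd44, -2.23 for Selplg and 0.95 for Itga6. For Itgb7 it was -0.46, for Itga4 0.52 and for Itgb1 0.03. In Vav-Etv2 mice it was -2.02 for Cxcr4, 0.80 for Itga6, -1.93 for Itgal and -1.40 for Itgb7. Cd44 stood at -2.32 there, Selplg at -1.72, Itga4 at 0.80, Itga5 at 0.41 and Itgb1 at 0.85. Over all alternatives the limma adjusted p of Cxcr4 ran from 0.0120 to 0.278 in control and from 0.00853 to 0.239 in Vav-Etv2 mice.

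**Figure D4:**
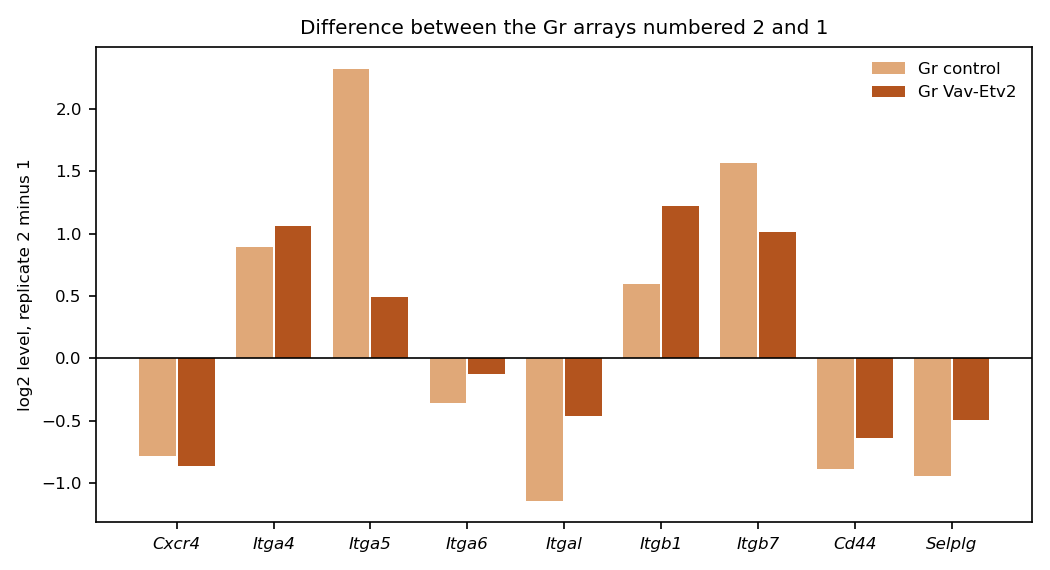
Log2 level on the Gr array numbered 2 minus that on the Gr array numbered 1 (y axis) for each homing gene, in control (light bars) and Vav-Etv2 mice (dark bars), 1 difference a bar. The bars of a gene point the same way for all 9 genes, down for Cxcr4, Itga6, Itgal, Cd44 and Selplg and up for the other 4.

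Over the 8 arrays, which share the cell type difference, the members fell into a few patterns, given here as a description. Cxcr4 correlated with Cd44 at r = 0.98 and with Selplg at 0.96, Cd44 with Selplg at 0.98 and Itgal with Selplg at 0.96. Itga6 ran opposite to Itgal and to Itgb7, at r = -0.89 with each. Itga4 correlated with Itgb1, read by its brighter probe, at r = 0.82, and Itga5 with Itgb7 at 0.04. For each gene the 3 named features most like it across these 8 arrays were taken by Pearson r. For Selplg these included Dlst (0.9987) and Maml1 (0.9977). Cd44 was followed by Mgll (0.9984), Il1r2, a decoy receptor for interleukin 1 (0.9982), and Pgm5 (0.9980). Itgb7 was followed by Pycard, an inflammasome adaptor (0.9986), Adora2b (0.9957) and Ctsz (0.9928). Itgal was followed by Map3k3, Tbpl1 and Lrrc6 (0.9953 to 0.9964), Cxcr4 by Spata2l, Heatr6 and Ush1c (0.9939 to 0.9956) and Itga6 by Klhl4, Mamdc2 and Cd8a (0.9919 to 0.9933). The weakest likeness was that of Itga4 to Ifi208, Spata6 and Chml (0.9764 to 0.9834), of Itgb1 to Nup88, Ppip5k1 and Taf6l (0.9720 to 0.9763) and of Itga5 to Sec23b, Mlh3 and Magt1 (0.9615 to 0.9819). Several of these features were not well above background on all arrays: Klhl4, Mamdc2 and Cd8a were so on 0 of 4 Gr arrays, Lrrc6 on 0 of 4 KSL arrays and Ush1c on 1 of 4, so their r rests partly on values near background.

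Ligands of these receptors were read in the same sorted cells. Cxcl12, the ligand of CXCR4, stood at -2.01 and -1.59 in KSL controls, -3.93 and -0.61 in KSL Vav-Etv2 cells, -2.57 and -3.50 in control Gr cells and -1.29 and -2.36 in Vav-Etv2 Gr cells. KSL controls were above Gr controls on both arrays (difference 1.24, SE 1.02, limma adjusted p = 0.370), and Gr Vav-Etv2 arrays were above Gr controls (1.21, SE 1.02, limma adjusted p = 1.00). Vcam1, the ligand of the α4 and β1 receptor, stood at 0.62 and 0.64 in KSL controls and at 1.05 and 1.24 in KSL Vav-Etv2 cells, and between 2.75 and 3.42 in Gr cells. It fell by 2.51 from control Gr to control KSL cells (SE 0.32, limma adjusted p = 0.00301) and by 1.94 in Vav-Etv2 mice (limma adjusted p = 0.00787). Fn1, which encodes fibronectin, stood at 2.54 and 2.83 in KSL controls, 6.54 and 3.53 in KSL Vav-Etv2 cells, 5.11 and 8.24 in control Gr cells and 6.74 and 8.73 in Vav-Etv2 Gr cells. Its KSL genotype difference of 2.35 did not pass (SE 1.32, limma adjusted p = 0.862), and KSL Vav-Etv2 1 was the higher array. Icam1, a ligand of LFA-1, was higher on both KSL Vav-Etv2 arrays (0.12 and -0.64) than in KSL controls (-1.54 and -1.34), a difference of 1.18 (SE 0.57, limma adjusted p = 0.786). Selp, which encodes the P-selectin that PSGL-1 binds, stood at 0.94 and 0.88 in KSL controls and at 0.89 and -0.13 in KSL Vav-Etv2 cells (difference -0.53, limma adjusted p = 1.00). Sele, for E-selectin, did not pass the filter on dim probes. In all, 15 of the 19 listed ligands and matrix partners were tested. Between control cell types 1 of 15 was higher in KSL (Mif, at 3.40, limma adjusted p = 0.00598) and 4 of 15 were lower, Vcam1, Spp1, Has2 and Thbs1, with a list median of 0.22, beside 16.2% higher and 18.5% lower over all features.

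Genes that act with the receptors were counted from lists, beside a median over all features of -0.13 between control cell types and shares called of 16.2% higher and 18.5% lower. Of 35 genes of integrin activation and chemokine signalling, 2 were higher in KSL cells and 21 lower (median -1.39). The higher ones were Rgs1, which dampens G protein signals of chemokine receptors (3.54, SE 0.48, limma adjusted p = 0.00372), and Ptk2, the focal adhesion kinase gene (at least 9.42-fold, limma adjusted p = 0.00414, not well above background in either Gr control). Among the lower ones were Vcl, for vinculin (-3.08, SE 0.31, limma adjusted p = 0.00165), Pxn, for paxillin (-3.17, limma adjusted p = 0.00357), Tln1, for the integrin activator talin (-1.51, limma adjusted p = 0.0152), and Fermt3, for kindlin-3 (-1.10, limma adjusted p = 0.0321). Of 13 other integrin subunits 1 was higher and 3 lower (median -0.42). Itga9 was at least 14.1-fold higher in KSL cells (limma adjusted p = 0.0168), Itga8 at least 7.84-fold lower (limma adjusted p = 0.00122), and Itgb2 and Itgav (-1.09, limma adjusted p = 0.0321) were lower. Of 13 other homing and egress receptors 4 were higher and 5 lower (median -1.18). The higher ones were Robo4, a guidance receptor of stem cells and endothelium (7.60, SE 0.69, limma adjusted p = 0.00135; 1 of 2 Gr controls well above background), Ccr7, Cxcr5 and Ccr9 (2.32 to 3.16). Among the lower ones were Ccr1 (at least 20.8-fold), S1pr4 (-3.21), Cxcr2, the receptor that draws neutrophils out of the marrow (-4.94, limma adjusted p = 0.0112) and Csf3r (-1.18).

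Of 13 genes that build selectin ligands 1 was higher in control KSL cells and 4 lower (median -0.92). Tpst2, which sulphates tyrosines of PSGL-1, was lower (-1.72, SE 0.36, limma adjusted p = 0.0136), as were Fut4 (-1.35, limma adjusted p = 0.0144), St3gal6 (-2.32) and C1galt1c1 (-2.67), and St3gal3 was higher (1.52, limma adjusted p = 0.0272). Fut7, the fucosyltransferase of selectin ligands in leukocytes, did not pass (0.77, SE 0.31, limma adjusted p = 0.0954). Of 17 other adhesion molecules and linkers 2 were higher, Cd34 (6.31, SE 0.53, limma adjusted p = 0.00109) and Esam (at least 61.3-fold), and 6 lower (median -0.82), among them Msn, for the PSGL-1 and CD44 linker moesin (-1.86, limma adjusted p = 0.00942), and Cd9 (-2.80, limma adjusted p = 0.0116). Of 15 proteases and inhibitors that act on marrow retention 3 were higher and 6 lower (median -0.45). Mmp2, Timp3 (at least 11.9-fold and 20.1-fold) and Dpp4 (2.47, limma adjusted p = 0.00947), which clips CXCL12, were higher, and Plau (at least 14.7-fold), Adam8 (-5.28), Mmp9 (-5.58, SE 1.21, limma adjusted p = 0.0157), Mmp8, Plaur and Timp2 were lower.

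Between genotypes 0 genes of these 7 lists were called in KSL cells and 0 in Gr cells by limma. At an unadjusted p under 0.05 the counts in KSL cells were 1 of 15 ligands, 3 of 13 integrin subunits, 2 of 13 receptors, 0 of 35 signalling genes, 1 of 13 ligand-building genes, 1 of 17 adhesion molecules and 1 of 15 proteases, and in Gr cells 0 in each list. Over all features 7.43% had such a p in KSL cells and 1.27% in Gr cells. The list medians in KSL cells lay between -0.12 for proteases and 0.67 for receptors, where that of all features was 0.00. The genes with the smallest p in KSL cells were Plau (1.72, SE 0.35, limma adjusted p = 0.242, not well above background on any KSL array), Itga1 (-1.41, SE 0.37, limma adjusted p = 0.367), Lama5 (-1.33, SE 0.39, limma adjusted p = 0.447) and Ccr2 (3.33, SE 1.10, limma adjusted p = 0.546). Ccr2, the receptor by which monocytes leave the marrow, stood at -0.07 and 0.20 in KSL controls and at 3.66 and 3.14 in KSL Vav-Etv2 cells. Monocyte markers were at medians of -0.79 and -0.49, then 0.07 and 0.89, on the same arrays, with 5 of 6 and then 6 of 6 well above background, and their part was not tested. Ccr2 is itself on that marker list, so the list is not independent of it. Itga2b, the platelet integrin subunit, stood at 0.81 and 0.98 in KSL controls and at 4.80 and 1.51 in KSL Vav-Etv2 cells (2.26, SE 1.03, limma adjusted p = 0.745), with most of the gap on the array that also had high megakaryocyte markers. Itga2b is itself on that marker list, so this likeness is partly built in. In Gr cells named differences included those of Cxcl12 (1.21, SE 1.02) and Dpp4 (1.06, SE 0.46), each with a limma adjusted p of 1.00. Itga9 was not well above background in either Gr control and was so on 1 of 2 Vav-Etv2 Gr arrays.

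**Figure D5:**
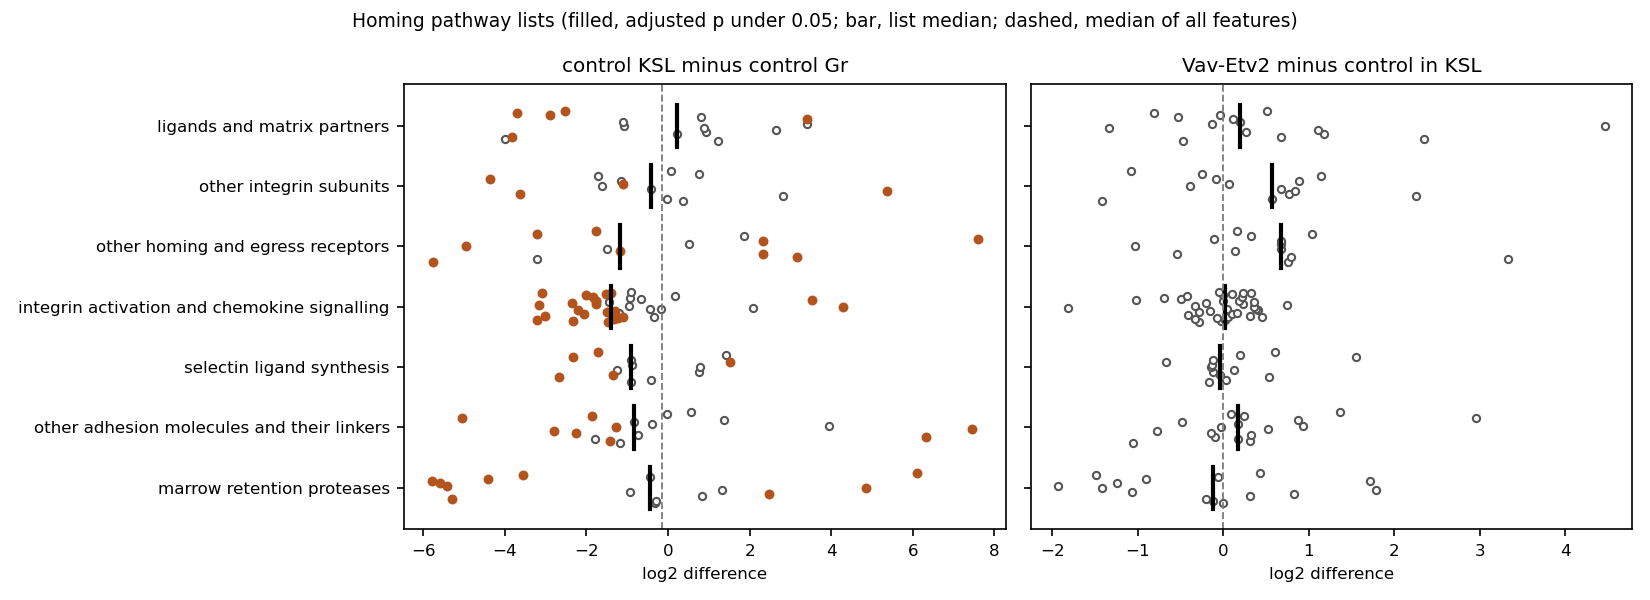
Log2 difference (x axis) of every tested gene in the 7 lists (rows), between control KSL and control Gr cells (left) and between genotypes in KSL cells (right), where filled points had a limma adjusted p under 0.05, black bars are list medians and the dashed line is the median of all features. The signalling list has 21 filled points below 0 and 2 above at the left, and no list has a filled point at the right.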

How the data were processed

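Signal intensities of 8 single-colour Agilent arrays were used as deposited: per the file headers, Feature Extraction 10.7.3.1 (10.7 per the submitters' processing notes) subtracted background and detrended them, with probe places on mm9. The deposited marks for outliers and signal well above background (a score of 0 or 1 per spot) were used as filters. Saturation marks were only counted. Each array held 62976 spots, 59305 of them not controls. After spots marked as outliers were left out and repeats averaged, 55661 of 55681 probes remained. The log2 intensity minus the array's 75th percentile (136 to 300.2) was the level. Well above background were 47.7% to 55.5% of probes, and 0 homing-gene probes were saturated.

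Probes were named through RefSeq by accession (26574), current symbol (2600) or older symbol (491), and otherwise kept the file's name (25996). Of the 32354 probes well above background on at least 2 arrays, the one with the highest mean stood for its gene, giving 23231 features. These were fitted with limma 3.58.1 (R 4.3.3 with the package data.table, version 1.17.8), with 1 coefficient for each of 4 groups of 2 arrays. P-values were adjusted by Benjamini-Hochberg over all features, with a threshold of 0.05. The fit had 4 residual and 2.77 prior degrees of freedom, and the script was tested on simulated data. A gene not well above background on any array of a group has only a bound there ("at least N-fold"), taken against the higher of the lowest signal well above background on each array and the probe's own. The number of arrays limits the precision.

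The authors' deposited log2 value table agreed within 0.05 log2 for 99.9% of entries with levels recomputed here and centred within each cell type. Its column medians ran from -0.26 to 0.29, and it was used only within a cell type, as an alternative. The homing genes, the gene lists and the tests were chosen with earlier results of these data known. Named list genes were those past the threshold, or otherwise up to 4 with the smallest p, besides 6 ligands and the 3 features most like each homing gene. Some genes past the threshold are given only by count, and 1 that the rule names is not reported here. Other alternatives were normexp background correction, median and quantile scaling, a floor, other filters, the mean of probes, a trended variance, only the compared groups, a replicate block, a sex term and leaving out arrays.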

Additional observations from a re-analysis of the deposited data

How the results depend on the processing

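Of the alternative values for single homing genes, 781 kept direction and call, 39 gained a call, 35 lost one and 54 changed sign. Of the counts, 128 stayed within 1.5 times and 74 moved. No homing gene was called in a genotype comparison or in the interaction of genotype and cell type under any alternative run. For differences with a changed call or sign, the cause was not tested.

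Over all features, 4 were called between genotypes in KSL cells, and 17 with normexp, 27 with median scaling, 50 with quantile normalization, 11 with a floor, 0 with a filter on all 8 arrays and 67 with a sex term. All KSL arrays were female, so the sex term left the KSL differences as they were. It changed only the estimated spread and its degrees of freedom. In Gr cells 2 were called, with 0 under normexp, 1 without a filter, 0 with the filter on all 8 arrays, 1 with a trended variance, 0 with only the compared groups, 1 with the replicate block, 1 with a sex term and 0 without both Gr arrays numbered 2. For the interaction 1 was called, with 6 under normexp, 2 under median scaling, 5 under quantile normalization, 5 with a sex term and 0 with a floor, no filter, the all-array filter, a trended variance, the replicate block or both Gr arrays numbered 2 left out. The last of these alternatives was chosen after seeing the data. Between control cell types 8069 were called, and 12497 with the replicate block and 13587 with a sex term. Between Vav-Etv2 cell types 5634 were called, and 10821, 12504 and, without both Gr arrays numbered 2, 10723. Leaving out 1 array gave 0 to 37 calls between genotypes in KSL cells (37 without KSL Vav-Etv2 2), 0 to 2 in Gr cells, 0 to 0 for the interaction, 2216 to 9396 between control cell types (2248 and 2216 without KSL control 1 and 2, and 4020 without Gr control 1) and 2249 to 7280 between Vav-Etv2 cell types.

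Of the 9 homing genes, 3 were called between Vav-Etv2 cell types, and 5 with normexp and 1 without a filter. With the all-array filter, a trended variance and the replicate block 6 were called each, and with a sex term 7. Leaving out 1 array gave 0 to 4 between control and 0 to 6 between Vav-Etv2 cell types. The block was not part of the reported values, since the labels state no pairing: deviations of same-numbered arrays correlated at 0.0681 in KSL and 0.658 in Gr cells, over 2 pairs each.

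Signs changed at these values. Itgal in Gr cells was 0.014 with normexp, 0.020 with median scaling, 0.024 with quantile normalization and 5.25e-04 in the value table. Cxcr4 in KSL cells was 0.018 and Itga4 between control cell types -0.088 under median scaling. With the mean of probes Itgb1 was -0.24 in KSL cells, 0.070 in Gr cells, -0.31 for the interaction and 0.56 between control cell types, and Cd44 was 8.60e-04 for the interaction. Itgb1 between control cell types was 0.19 with a sex term and 0.032 without both Gr arrays numbered 2.

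With 1 array left out, genotype differences in KSL cells ran from -0.49 to 0.43 for Cxcr4, -0.033 to 0.19 for Itgb7, -0.74 to 0.11 for Cd44 and -0.042 to 0.38 for Selplg. In Gr cells they ran from -0.22 to 0.64 for Cxcr4, -0.26 to 0.81 for Itga4, -0.50 to 1.83 for Itga5, -0.22 to 0.14 for Itga6, -0.57 to 0.57 for Itgal, -0.66 to 0.55 for Itgb1, -0.044 to 1.52 for Itgb7, -0.55 to 0.34 for Cd44 and -0.59 to 0.36 for Selplg. The interaction ran from -0.70 to 0.22 for Cxcr4, -0.34 to 0.72 for Itga4, -2.24 to 0.088 for Itga5, -0.10 to 1.12 for Itgb1, -1.44 to 0.12 for Itgb7, -0.65 to 0.24 for Cd44 and -0.19 to 0.76 for Selplg. Control cell types differed by -0.37 to 0.52 for Itga4 and -0.57 to 0.032 for Itgb1. Vav-Etv2 cell types differed by -0.27 to 0.80 for Itga4, -0.14 to 0.47 for Itga5 and -0.37 to 0.85 for Itgb1. Where an array left out leaves a group with 1, that array is assumed to vary like the other groups.

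Median scaling moved the median of all features by -0.16 between control cell types and by -0.14 between Vav-Etv2 cell types, and the share of calls that were higher in KSL from 46.7% to 35.9% and from 43.0% to 33.9%.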
